A study of Mus musculus with 6 samples.

Results

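Histones are the proteins that package DNA, and mammals encode them in a pair of gene classes that differ in how their messenger RNA ends. The genes described here are the mouse histone genes of both classes in embryonic lens with and without Prox1, a homeodomain protein on which the elongation of lens fibre cells and their crystallin expression depend. Features were taken by name (Hist1h to Hist4h for the clustered, replication-dependent genes, and H2af, H3f3 and H1f for the variant genes), and a gene was kept when it had 10 or more counts in at least 3 libraries. Of 41128 features in the files, 92 carried such a name and 22 were kept. These were 12 of 70 clustered genes and 10 of 22 variant genes, and all 22 passed the filter on low counts of the test across all features.

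The lenses came from mouse embryos at E13.5, the stage at which primary fibre cells fill the lens, and both groups are labelled with the strain C57Bl/6. The conditional knockout (cKO) embryos carried Prox1 f/f with the transgene MLR10Cre, which drives Cre recombinase in lens cells. The other group is labelled wild type (WT) at Prox1 with no transgene named, and a Cre-only or floxed-only control was not analysed here. Each group had 3 libraries, labelled as biological replicates and each made from a pool of 30 lenses, so differences between single embryos cannot be seen. Polyadenylated RNA was selected with oligo-dT beads and sequenced as single-end reads of 51 bases without strand information.

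Clustered histone genes are transcribed mainly while DNA is copied, and most of their messages end just after a conserved stem-loop instead of in a poly(A) tail, so oligo-dT selection is known to recover them poorly. Stem-loop binding protein and the U7 small nuclear ribonucleoprotein make that end, and some clustered genes also yield longer, polyadenylated messages that run past the stem-loop, in particular in cells that have left the cell cycle. Variant histone genes lie outside the clusters, are transcribed throughout the cell cycle, carry poly(A) tails and supply histones that replace the canonical ones in chromatin. The developing lens holds dividing epithelial cells and fibre cells that leave the cell cycle as they elongate.

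The stem-loop is the feature that separates the classes, and it was looked for in the GENCODE M21 transcripts of each gene (build GRCm38), as a 16-base pattern with a stem of 6 paired bases and a loop of 4. It was found in 9 of the 12 clustered members and in 1 of the 10 variant members, H2afx, whose gene is known to give both kinds of message. Of 55450 annotated genes, 134 held the pattern, or 0.242%. The 10 stem-loops had 5 different sequences, shown 5′ to 3′ as DNA with the loop in capitals. The first was shared by Hist1h1c, Hist1h1d, Hist1h1e, Hist1h2be, Hist2h3c2 and Hist3h2ba, and its copy in Hist1h1c lies at chr13:23739512-23739527 on the plus strand.
Hist1h1c and 5 other members: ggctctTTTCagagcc
Hist1h4h (chr13:23531458-23531473, plus strand): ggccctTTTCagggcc
Hist1h4i (chr13:22040966-22040981, minus strand): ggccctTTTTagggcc
Hist1h4j (chr13:21735437-21735452, plus strand): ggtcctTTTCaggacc
H2afx (chr9:44335240-44335255, plus strand): ggccctTTTAagggcc
The pattern was not found in the annotated transcripts of Hist1h1b, Hist1h2bc and Hist2h2be.

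Annotated sequence past the stem-loop was common among the clustered genes that the libraries held. In 8 of the 12 clustered members an annotated transcript ran more than 100 bases beyond the stem-loop, against 15 of the 58 clustered genes below the count minimum. The stem-loop itself was found in 9 of these 12 and in 37 of these 58. Annotated transcripts without it could not show sequence past it. The longest transcripts had a median of 1088 bases in the clustered members and 514 bases in the clustered genes below the minimum. A poly(A) signal, in the form AATAAA or the variant form ATTAAA, stood in the last 50 bases of a transcript in 7 of the 12 clustered members, in 10 of the 58 below the minimum and in all 10 variant members. The clustered members whose annotated transcripts lacked that signal were Hist1h1b, Hist1h1d, Hist1h1e, Hist1h2bc and Hist2h3c2. These are descriptions of the annotation, and the read counts do not say which end a message had.

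The 58 clustered genes below the minimum were near the limit of detection. No count was seen for 12 of them in any library, and the highest count of any other was 17. Summed over all 58, the cKO libraries held 199, 144 and 65 counts and the WT libraries 131, 136 and 125. Scaled to CPM (library size) with edgeR's TMM factors (TMM CPM, the scale of all levels below unless another is named), these sums were 5.85, 12.02 and 6.56 in cKO and 6.33, 7.79 and 7.20 in WT, and the groups overlapped. The 12 variant genes below the minimum, among them germline histones such as H1foo, held at most 2 counts in a library.

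Total counts were 28391662, 10907877 and 9082219 in cKO libraries 1 to 3 and 21061582, 20731491 and 20812141 in the WT libraries. So 3 counts, taken as the limit of detection, stand for 0.106 to 0.330 CPM by library totals and for 0.0882 to 0.303 TMM CPM. Prox1, the targeted gene, was lower in each cKO library (651, 728 and 707) than in each WT library (922, 1215 and 1246), with a log2 fold change of -0.70 (SE 0.141, adjusted p = 0.00740 by edgeR's quasi-likelihood test with Benjamini-Hochberg adjustment). cKO library 1 stood apart from cKO libraries 2 and 3. Lars2 and Gm26917, features that commonly collect reads of ribosomal RNA and were picked after their values were seen, took 0.676% and 0.0714% of its counts, against 5.71% and 0.406% in cKO library 2 and 7.05% and 0.590% in cKO library 3. In the WT libraries Lars2 took 0.878% to 1.74% and Gm26917 0.0656% to 0.157%. Results below are therefore also given from cKO library 1 alone against the 3 WT libraries. That fit has 1 cKO pool, so its p-values hold no spread between cKO pools and its calls are descriptive.

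Clustered histone messages in the polyadenylated fraction were lower in the cKO lenses for a set of H1, H2B and H3 genes, by a factor of 2.03 to 4.68. Of the 12 clustered members, 1 rose, 5 fell, and the remaining 6 missed the adjusted threshold of 0.05. Over all 14271 features tested, 16.8% fell, 15.9% rose and 32.6% were called in either direction. The median log2 fold change of the 12 was -0.53, against 0.04 over all features tested. With cKO library 1 alone against the WT libraries 7 fell and none rose, the additional ones being Hist1h1e and Hist1h4h, when 8.98% of all features were called lower and 6.26% higher. At 2-fold or more, the clustered members held 5 called lower and 1 called higher, beside 5.11% and 5.86% of all features.

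Hist1h2bc, which encodes an H2B and was the clustered member with the largest decrease, stood at 11.0, 10.1 and 10.5 in the cKO libraries and at 35.5, 56.0 and 57.11 in the WT libraries. Every cKO library was below every WT library, and the cKO libraries lay close together while WT library 1 was lower than the other two. The log2 fold change was -2.23 (SE 0.190, adjusted p = 0.000178), a level 4.68-fold lower in cKO. Of the 51-base stretches of its transcripts, 30.4% also occur in other genes, so part of its count could belong to those. How such reads were counted is unknown.

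Hist2h3c2, which encodes an H3, had 0.823, 0.919 and 1.31 in cKO and 3.72, 4.30 and 4.15 in WT. The groups did not overlap, and the log2 fold change was -2.04 (SE 0.262, adjusted p = 0.000950). Of the members it shares the most sequence with other genes, 63.5% of its 51-base stretches, and its value is uncertain for that reason. Hist1h2be, another H2B gene, followed the same order with 1.29, 0.919 and 1.31 in cKO and 2.75, 3.89 and 3.80 in WT (log2 fold change -1.54, SE 0.271, adjusted p = 0.00399). Both genes were near 1 CPM in cKO, with 11 to 44 counts a library. Exons of Hist1h2be and of its neighbour Hist1h1e overlap each other and Gm11398 on the same strand, so reads from this stretch of the cluster cannot be fully assigned. Of their 51-base stretches, 16.3% and 31.9% also occur in other genes.

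Hist1h1c encodes the linker histone H1.2, which binds DNA between nucleosomes. It stood at 25.8, 24.6 and 20.5 in cKO and 41.2, 60.7 and 64.0 in WT, with no overlap and a log2 fold change of -1.22 (SE 0.176, adjusted p = 0.00162). Hist3h2ba, an H2B gene outside the major cluster, had 25.9, 26.6 and 21.0 in cKO and 46.5, 54.9 and 48.5 in WT. Its log2 fold change was -1.02 (SE 0.123, adjusted p = 0.000684), and again each cKO library was below each WT library. The 5 genes that fell were called lower in each of the 6 fits that left out 1 library. They were also called lower with DESeq2 (17.2% of all features lower, 15% higher) and with limma-voom (16.7% lower, 15.6% higher). WT library 1 was the lowest WT library for all 5 of these genes and also had the least crystallin RNA of the WT libraries, 13.2% of counts against 21.5% and 22.7%; the part of this in the values was not tested. From cKO library 1 alone the log2 fold changes of the 5 genes ran from -2.29 (Hist2h3c2) to -0.95 (Hist3h2ba).

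The clustered members not called lower with all libraries were of several kinds. Hist2h2be, an H2B gene whose annotated transcript has a poly(A) signal, had 28.0, 20.0 and 20.5 in cKO and 22.0, 22.0 and 22.5 in WT, with a log2 fold change of 0.06 (SE 0.148, adjusted p = 0.791). Hist1h4i, an H4 gene, had 6.06, 6.43 and 7.67 in cKO and 5.46, 7.62 and 6.33 in WT, with a log2 fold change of 0.05 (SE 0.194, adjusted p = 0.867). For both, the groups overlapped and the SE was under 0.2 on the log2 scale. Other genes share 28.7% of the 51-base stretches of Hist1h4i, so part of its count could belong to those. Hist1h4h, another H4 gene, had 0.176, 0.835 and 0.605 in cKO and 0.773, 1.32 and 1.21 in WT. Its groups overlapped, with 6 to 23 counts a library, and the log2 fold change of -1.24 (SE 0.556) did not pass the threshold (adjusted p = 0.118). From cKO library 1, its lowest library, alone the log2 fold change was -2.59. Of its 51-base stretches, 45.7% also occur in other genes, and its value is uncertain for that reason too. Hist1h4j, also an H4 gene, shares 24.4% of its 51-base stretches with other genes. It had 0.529, 1.00 and 1.01 in cKO and 0.242, 0.401 and 0.403 in WT. All 3 cKO libraries were above the WT libraries, with 5 to 18 counts a library, and the log2 fold change of 1.19 (SE 0.445) also missed the threshold (adjusted p = 0.0706).

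**Figure D1:**
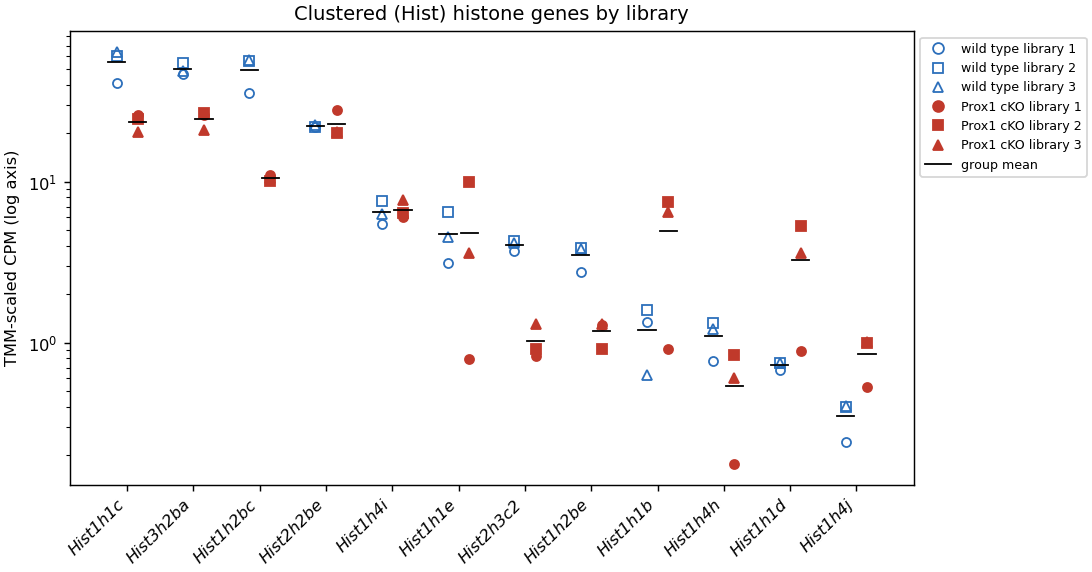
TMM-scaled CPM (log axis) of the 12 clustered members in each library, ordered by the WT mean, with open symbols for WT, filled symbols for Prox1 cKO and a line at each group mean. Hist1h1c, Hist3h2ba, Hist1h2bc, Hist2h3c2 and Hist1h2be have all 3 cKO libraries below all 3 WT libraries, and Hist1h1b, Hist1h1d and Hist1h1e have cKO library 1 far below cKO libraries 2 and 3. Hist1h4h and Hist1h4j, with few counts, also have cKO library 1 below cKO libraries 2 and 3.

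The other linker histone genes of the cluster, Hist1h1b (H1.5), Hist1h1d (H1.3) and Hist1h1e (H1.4), differed more among the cKO libraries than between the groups. Hist1h1d had 0.882, 5.34 and 3.63 in cKO and 0.676, 0.744 and 0.748 in WT. It was the clustered gene that rose, with a log2 fold change of 2.11 (SE 0.616, adjusted p = 0.0313). cKO library 1 lay just above the WT libraries and the other two cKO libraries well above them. With limma-voom the call was lost (adjusted p = 0.206), as it was in the fits that left out cKO library 2 (0.104), cKO library 3 (0.0742), WT library 1 (0.0720), WT library 2 (0.102) or WT library 3 (0.0885). From cKO library 1 alone the log2 fold change was 0.29.

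Hist1h1b had 0.911, 7.52 and 6.46 in cKO and 1.35, 1.60 and 0.633 in WT, with cKO library 1 inside the WT range. Its log2 fold change of 1.98 (SE 0.717) missed the threshold (adjusted p = 0.0634), passed it with DESeq2 (adjusted p = 0.00553) and without cKO library 1 (adjusted p = 0.00338), and was -0.40 with cKO library 1 alone. Hist1h1e had 0.794, 10.02 and 3.63 in cKO and 3.14, 6.53 and 4.55 in WT, so that cKO held both the lowest and the highest library. Its log2 fold change was -0.04 with an SE of 0.721 (adjusted p = 0.970), and with cKO library 1 alone it was -2.56. These 3 genes are among the 5 clustered members without a poly(A) signal at an annotated transcript end. The other members of that set, Hist1h2bc and Hist2h3c2, did not differ in this way between the cKO libraries. Hist1h4h (0.176, 0.835 and 0.605 in cKO) and Hist1h4j (0.529, 1.00 and 1.01), which have that signal and few counts, were also lower in cKO library 1 than in cKO libraries 2 and 3.

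The cKO libraries with more Hist1h1b, Hist1h1d and Hist1h1e were those with more Lars2 and Gm26917. In WT, Lars2 took 0.878% to 1.74% of counts, a narrower range than in cKO, and was highest in library 1. The WT library with the most Hist1h1b, Hist1h1d or Hist1h1e was another one. A link between Lars2 and these genes was not tested. Malat1, a nuclear RNA whose end is a processed triple helix without a poly(A) tail, was at 196, 727 and 1199 in cKO and 847, 1382 and 1537 in WT, lowest in cKO library 1 as well. The part of RNA quality or of poly(A) selection in the values of these 3 H1 genes was not tested. Of 15 RNAs without a canonical poly(A) tail that the files list, 13 (small nuclear, nucleolar and cytoplasmic RNAs such as Rn7sk and Rmrp) are listed at 0 in all 6 libraries, and the other two, Malat1 and Neat1, were not called (adjusted p = 0.255 and 0.962 by edgeR; 0 at an unadjusted p under 0.05 and 0 with DESeq2 or limma-voom). From cKO library 1 alone the log2 fold change of Malat1 was -2.68.

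**Figure D2:**
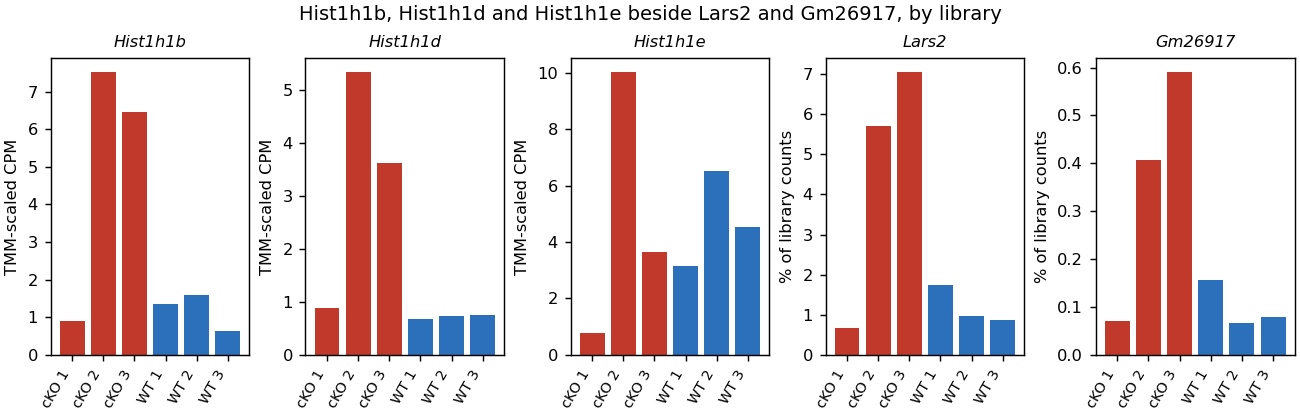
TMM-scaled CPM of Hist1h1b, Hist1h1d and Hist1h1e and the percentage of library counts in Lars2 and Gm26917, one bar per library, with cKO in red and WT in blue. In all 5 panels cKO library 1 is below cKO libraries 2 and 3, and Hist1h1e is highest in cKO library 2 at 10.02.

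Promoters of the H1 genes are printed because Hist1h1c fell while Hist1h1b, Hist1h1d and Hist1h1e did not, and they show which short elements these neighbours share and which they do not. The sequences are the 150 bases before the RefSeq start site (build GRCm38.p6), 5′ to 3′ on the gene's strand, with matches to 4 short motifs on either strand in capitals. The motifs were TATAAA (the TATA box), CCAAT (the CCAAT box), ATTTGCAT (the octamer) and AAACACA. The last is part of the element known as the H1 box and was added to the search after the values were seen. The capitals do not overlap one another.
Hist1h1b (chr13:21780626-21780775, minus strand): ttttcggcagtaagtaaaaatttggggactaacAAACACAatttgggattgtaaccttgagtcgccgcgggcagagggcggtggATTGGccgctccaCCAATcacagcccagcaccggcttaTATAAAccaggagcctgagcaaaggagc
Hist1h1c (chr13:23738657-23738806, plus strand): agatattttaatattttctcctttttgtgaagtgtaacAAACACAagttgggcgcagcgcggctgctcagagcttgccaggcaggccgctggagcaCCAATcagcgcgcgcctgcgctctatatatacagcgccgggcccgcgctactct
Hist1h1e (chr13:23622559-23622708, minus strand): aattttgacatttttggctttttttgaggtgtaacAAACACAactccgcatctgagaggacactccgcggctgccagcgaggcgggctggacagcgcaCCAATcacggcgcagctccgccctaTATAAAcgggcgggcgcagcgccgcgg
AAACACA begins 117, 112 and 115 bases before the start site in Hist1h1b, Hist1h1c and Hist1h1e. The forward CCAAT begins 53, 54 and 52 bases before it.

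Hist1h1d, whose window lies within a longer GENCODE transcript and is not printed, also holds AAACACA as well as CCAAT and a TATAAA match. As spelled, TATAAA is in the windows of Hist1h1b, Hist1h1d and Hist1h1e and is not in that of Hist1h1c. The Hist1h1c sequence holds tatatata between its CCAAT match and the start site. The search for exact letters does not take that spelling, so it does not show that Hist1h1c lacks a TATA box. RefSeq promoter windows of 300 bases were found for 19 of the 22 members, and no entry was found for H2afx, Hist1h2bc and Hist2h2be. Of the 10 clustered members with a window, 4 held AAACACA, 6 held TATAAA, 7 held CCAAT and 1 held ATTTGCAT (reverse complements included). Of the 9 variant members with a window, 1 held AAACACA, 1 held TATAAA, 6 held CCAAT and 1 held ATTTGCAT. Among all 32851 windows the shares in that order were 7.18%, 13.6%, 37.4% and 1.74%. A match of these letters is a description and no evidence of binding.

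Among the variant histone messages, 3 were 1.38-fold to 1.43-fold higher in the cKO lenses and the others were not called. Of the 10 variant members, 3 rose and none fell by edgeR (beside 15.9% and 16.8% of all features); at an unadjusted p under 0.05, and with DESeq2 or limma-voom, the counts were likewise 3 and 0. The median log2 fold change of the 10 was 0.15. These counts depend on the scaling: with library totals alone, which took the median of all features to 0.39, 6 variant members rose and none fell, 3 clustered members rose and 5 fell, and 38% of all features were called higher and 6.62% lower.

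H3f3b, one of a pair of genes for the replacement histone H3.3, had 792, 670 and 726 in cKO and 545, 504 and 486 in WT. All cKO libraries were above all WT libraries, with a log2 fold change of 0.51 (SE 0.111, adjusted p = 0.0101), or 1.43-fold. H3f3a, which encodes the same protein, had 79.0, 71.8 and 68.6 in cKO and 71.3, 89.7 and 74.5 in WT, and its groups overlapped (log2 fold change -0.10, SE 0.113, adjusted p = 0.518). Other genes share 26.9% of the 51-base stretches of H3f3a, among them 172 genes, and 6.66% of those of H3f3b. The difference between the pair in response was not tested.

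H2afv and H2afz encode the closely related H2A.Z proteins, which mark active promoters. H2afv rose from 113, 99.6 and 109 in WT to 170, 148 and 126 in cKO without overlap (log2 fold change 0.47, SE 0.122, adjusted p = 0.0207). H2afz had 25.5, 25.6 and 18.1 in cKO and 17.6, 21.0 and 15.9 in WT. Those groups overlapped, and the log2 fold change of 0.35 (SE 0.170) was not called (adjusted p = 0.143). Other genes share 35.1% of the 51-base stretches of H2afz, so its value is uncertain for that reason.

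H2afy2 and H2afy encode the macroH2A histones, whose large extra domain is associated with silent chromatin. H2afy2 had 120, 115 and 101 in cKO and 84.8, 77.5 and 80.7 in WT, with no overlap (log2 fold change 0.47, SE 0.0968, adjusted p = 0.00819). H2afy had 336, 299 and 246 in cKO and 307, 288 and 289 in WT, with a log2 fold change of 0.00 (SE 0.125, adjusted p = 0.987). The WT libraries of H2afy lay inside the range of its cKO libraries.

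H2afx, the variant that is phosphorylated at DNA breaks and that alone among the variants held a stem-loop, had 140, 117 and 97.5 in cKO and 108, 83.8 and 98.8 in WT (log2 fold change 0.29, SE 0.147, adjusted p = 0.155). H1f0, the linker histone typical of cells that have stopped dividing, had 422, 396 and 385 in cKO and 374, 404 and 424 in WT. Its groups overlapped almost fully, with a log2 fold change of 0.00 (SE 0.0996, adjusted p = 0.989). The linker histone gene H1fx had 33.0, 21.3 and 20.7 in cKO and 27.3, 20.7 and 30.5 in WT (log2 fold change -0.05, SE 0.212, adjusted p = 0.872). H2afj, an H2A variant gene, had 21.9, 20.7 and 15.5 in cKO and 19.9, 24.5 and 24.0 in WT (log2 fold change -0.22, SE 0.156, adjusted p = 0.296). None of these 4 separated the groups.

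**Figure D3:**
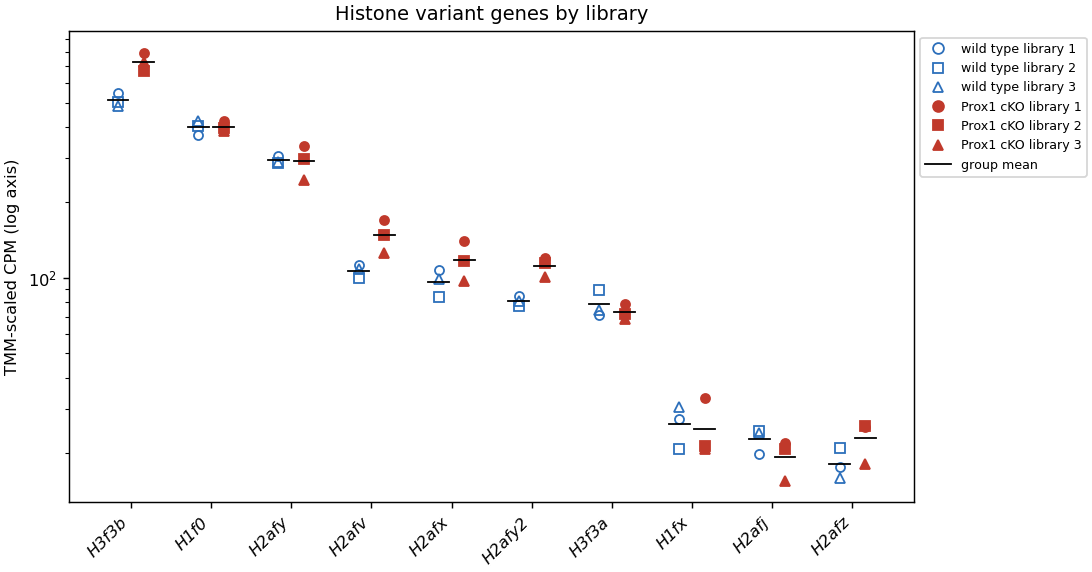
TMM-scaled CPM (log axis) of the 10 variant members in each library, ordered by the WT mean, with open symbols for WT, filled symbols for Prox1 cKO and a line at each group mean. H3f3b, H2afv and H2afy2 have all 3 cKO libraries above all 3 WT libraries, and the groups overlap for the other 7 genes.

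The 3 variant calls depended on the WT libraries in the fit. Without WT library 2 none of them passed (adjusted p = 0.0562 for H3f3b, 0.106 for H2afv and 0.0542 for H2afy2), when 5.72% of all features were called higher. Without WT library 3, H3f3b (0.0660) and H2afv (0.0767) did not pass, H2afy2 did, and 6.53% of all features were called higher. Leaving out cKO library 2 ended the call of H2afv (0.0569). From cKO library 1 alone the log2 fold changes were 0.63 for H3f3b, 0.67 for H2afv and 0.57 for H2afy2.

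Counted by overlap of the libraries, 5 clustered members had all cKO libraries below all WT libraries, 2 had them above and 5 overlapped, while 3 variant members had them above and 7 overlapped. Over all features tested, 25.7% lay below, 24.4% above and 50.1% did not overlap in either direction. Among the clustered members every change past the threshold was at least 2-fold, and among the variant members none was. The difference in response between the classes was not tested.

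**Figure D4:**
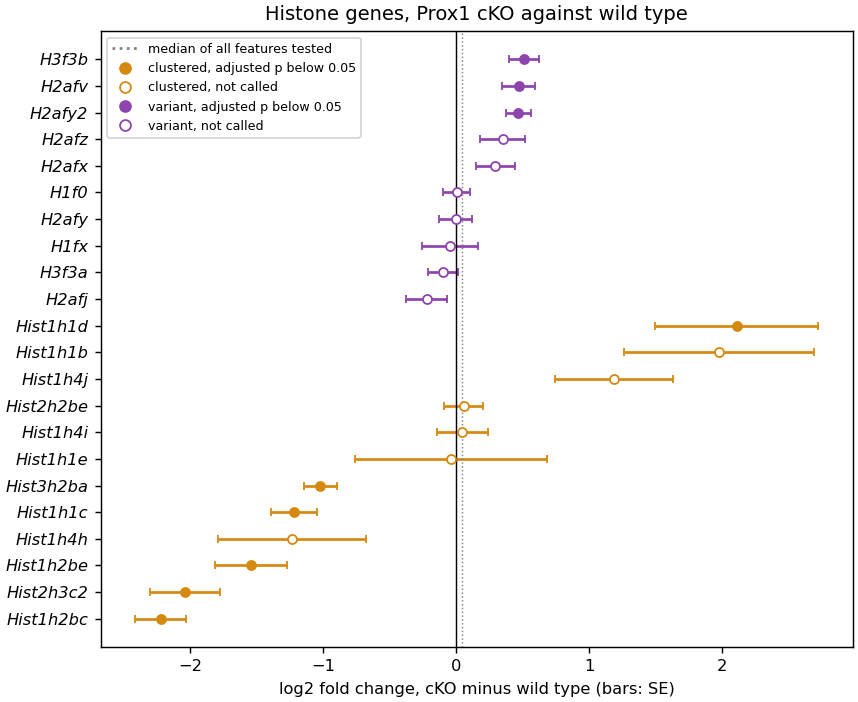
Log2 fold change of cKO minus WT for the 22 members, with bars of 1 SE, orange for clustered and purple for variant genes, filled where the adjusted p was below 0.05. The clustered genes run from -2.23 (Hist1h2bc) to 2.11 (Hist1h1d), and the variant genes lie between -0.22 (H2afj) and 0.51 (H3f3b); the dotted line marks the median of all features tested, 0.04.

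Summed over the 12 clustered members, the cKO libraries held 102, 114 and 98.0 TMM CPM and the WT libraries 163, 220 and 214. Every cKO library was below every WT library, and the group means were 104.8 ± 8.34 and 199 ± 31.1 (SD, n = 3 each), 1.90-fold lower in cKO. Hist1h1c, Hist1h2bc, Hist3h2ba and Hist2h2be make up most of these sums, so they describe those genes. The 10 variant members summed to 2140, 1885 and 1804 in cKO and 1666, 1614 and 1632 in WT (means 1943 ± 175 and 1637 ± 26.4, SD, n = 3 each). Here every cKO library was above every WT library. H3f3b alone had means of 512 in WT and 729 in cKO and made up most of the difference in this sum. The sum also holds H1f0 (means 401 in WT and 401 in cKO) and H2afy (295 and 294). The groups overlapped for 7 of the 10 members. The clustered share of both sums was 4.56%, 5.71% and 5.15% in cKO and 8.92%, 11.99% and 11.6% in WT. No p is given for these sums, since the members were chosen with results of these data known.

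**Figure D5:**
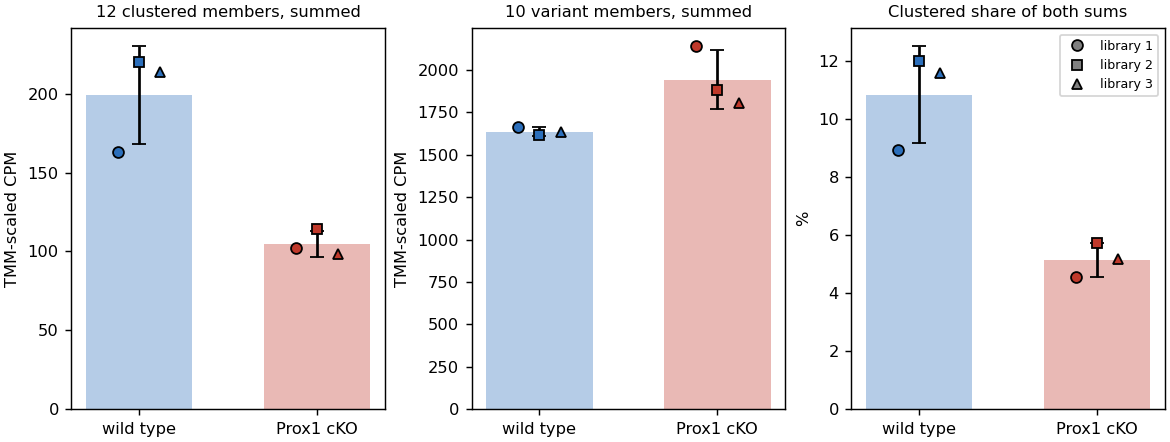
Summed TMM-scaled CPM of the 12 clustered and the 10 variant members and the clustered share of both sums, with bars at the group mean, whiskers of 1 SD and a symbol for each of the 3 libraries a group. The clustered sums are 98.0 to 114 in cKO and 163 to 220 in WT, and the clustered share is 4.56% to 5.71% in cKO and 8.92% to 11.99% in WT.

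Levels of different genes were compared only per length, as the deposited RPKM (reads per kilobase and library size). This unit divides by library totals, of which crystallin genes took 2.83% to 3.14% in cKO and 13.2% to 22.7% in WT, so the order of genes is given within each group and no fold between groups is taken from it. In WT the order began with H1f0 (155 ± 5.83, SD, n = 3) and H3f3b (153 ± 23.6), whose values overlapped. They were followed by Hist3h2ba (71.8 ± 5.18), H2afx (62.3 ± 12.9), Hist1h2bc (58.7 ± 9.81) and H2afv (58.2 ± 8.56). These last 4 lay within about 1 SD of their neighbours. Hist3h2ba and Hist1h2bc were thus among the 6 members with the most polyadenylated RNA per length in WT, beside variant genes. Clustered messages without a poly(A) tail are recovered poorly, so the orders given here do not compare total RNA between the classes. Other genes share 21.8% of the 51-base stretches of Hist3h2ba and 30.4% of those of Hist1h2bc.

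In cKO, H3f3b led (277 ± 37.2 RPKM), followed by H1f0 (198 ± 19.8), H2afv (103 ± 20.7) and H2afx (97.0 ± 22.3). H2afv and H2afx did not differ beyond their spread. Hist3h2ba (45.1 ± 6.91) came after the macroH2A genes H2afy2 (58.2 ± 7.79) and H2afy (49.0 ± 9.86), and Hist1h2bc (16.2 ± 1.54) was close to Hist1h1c (17.1 ± 2.74) and H2afz (14.7 ± 3.19). At the low end of both groups Hist1h4j, Hist1h2be, Hist1h4h and Hist2h3c2 were under 4 RPKM, and in WT so were Hist1h1d (0.859 ± 0.0302) and Hist1h1b (1.44 ± 0.631).

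Of 17 tested genes of the machinery that transcribes clustered histone genes and forms their message ends, 4 rose, 2 fell and 11 were not called, with a median log2 fold change of 0.11. The share called was near that of all features (15.9% higher, 16.8% lower), so the count does not set this list apart. Slbp, the stem-loop binding protein, rose by 0.41 on the log2 scale (SE 0.119, adjusted p = 0.0314) from 52.0 ± 3.98 in WT to 68.8 ± 9.44 in cKO. Lsm11, a subunit of the U7 particle, and Npat, the activator of clustered histone transcription, rose by 0.40 (adjusted p = 0.0496) and 0.30 (adjusted p = 0.0332). Ncbp1, the large subunit of the cap-binding complex, fell by 0.48 (adjusted p = 0.0102), and Cstf2, a cleavage factor, fell by 0.34 (adjusted p = 0.0219). These calls were sensitive to the libraries: 1 rose and 3 fell with DESeq2, 1 rose and none fell with cKO library 1 alone, and the number that rose was 0 without WT library 2 or WT library 3, 1 without cKO library 1 or cKO library 2 and 2 without cKO library 3 or WT library 1. With library totals alone 8 rose and none fell, beside 38% and 6.62% of all features.

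Among 22 histone chaperones and variant exchange factors, 6 rose, 2 fell and 14 were not called (median 0.17), again a share near the 32.6% of all features called in either direction. Nap1l4, a chaperone of H2A and H2B, showed the largest change, from 1705 ± 345 in WT to 478 ± 37.7 in cKO (log2 fold change -1.83, SE 0.169, adjusted p = 0.000215). Ipo4, an importin that carries H3 and H4 into the nucleus, fell by 0.62 (adjusted p = 0.00173). Chaf1b and Chaf1a, subunits of the factor that deposits H3 and H4 behind replication forks, rose by 0.66 (adjusted p = 0.0127) and 0.51 (adjusted p = 0.0231), and the chaperone Asf1b by 0.62 (adjusted p = 0.0240). Hira, which deposits H3.3, was not called (log2 fold change 0.13, adjusted p = 0.389), and Cenpa, the centromeric H3 variant, which the name rule does not take, rose by 0.51 (adjusted p = 0.0195), a call lost without WT library 2 or WT library 3. With cKO library 1 alone 3 of the 22 rose, without cKO library 2 or cKO library 3 the counts were 2 and 3, and without WT library 2 or WT library 3 they were 0 and 1, while 2 fell in each of these fits. With library totals alone 14 rose and 1 fell.

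Genes of S phase, when clustered histone genes are transcribed, moved the other way from the clustered members that fell. Of 30 tested by edgeR, 18 rose, 12 missed the threshold and none fell, beside 15.9% of all features called higher and 16.8% lower (22 and 0 at an unadjusted p under 0.05, and 16 and 0 with DESeq2), and the median log2 fold change was 0.42. E2f1, a transcription factor of the G1 to S transition, rose by 0.60 (adjusted p = 0.00878), Rrm2, a subunit of ribonucleotide reductase, by 0.59 (adjusted p = 0.0108), Pole, a DNA polymerase catalytic subunit, by 0.53 (adjusted p = 0.0118) and Mcm6, a subunit of the replicative helicase, by 0.52 (adjusted p = 0.0225). The number that rose was 14 with cKO library 1 alone (6.26% of all features), 10 without cKO library 1 (when 14.6% of all features were called higher), 9 without cKO library 2 (10.9%) and 1 without WT library 2 (5.72%) or without WT library 3 (6.53%), and none fell in any of these fits. With library totals alone 29 of the 30 rose, beside 38% of all features.

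Markers of cell types also differed between the groups. The lens markers include Prox1, the targeted gene, and crystallin genes, whose expression depends on Prox1. A fall of these genes does not by itself show a difference in cells. Of 8 lens markers, 7 fell and Pax6 rose (beside 16.8% and 15.9% of all features), and their summed level was 20730 to 23210 in cKO and 94100 to 173100 in WT, so lens markers were present in all libraries. Of 6 surface ectoderm markers all rose (sum 39.1 to 133 in cKO, 9.45 to 28.7 in WT), as did 6 of 7 pigment cell markers (268 to 739 and 82.2 to 193), 4 of 8 neural retina markers tested (517 to 845 and 357 to 474) and 3 of 7 periocular mesenchyme markers tested (605 to 2732 and 199 to 451, with Foxc2 at 0 in all libraries). Erythroid markers rose in 4 of 10 with overlapping sums (1414 to 2259 and 785 to 2620), vessel endothelium in 1 of 8 (420 to 543 and 261 to 476) and skeletal muscle in 1 of 3 tested (6.38 to 36.3 and 1.40 to 12.2, with Ckm at or near 0). No macrophage marker of 7 was called (68.1 to 95.8 and 35.2 to 78.9; 1 rose at an unadjusted p under 0.05, none fell), and of 6 neuron markers 1 fell and none rose (70.5 to 93.4 and 74.8 to 119). These counts depended on the libraries and the scaling. With cKO library 1 alone 4 lens markers fell, 2 surface ectoderm, 1 pigment cell and 4 neural retina markers rose, and no mesenchyme, erythroid or endothelium marker was called. Without WT library 2 the numbers that rose were 2 for surface ectoderm, 3 for pigment cells, 1 for erythroid cells and 0 for neural retina, mesenchyme and endothelium, and without WT library 3 they were 3, 3, 0, 0, 1 and 0 for surface ectoderm, pigment cells, erythroid cells, neural retina, mesenchyme and endothelium. Without WT library 1, 5 of 7 mesenchyme, 7 of 8 endothelium, 4 of 7 macrophage and 5 of 8 neural retina markers rose. Surface ectoderm, pigment cell and erythroid counts were then 6, 6 and 4, and 2400 of 14605 features were called higher. With library totals alone 7 of 7 mesenchyme, 7 of 8 endothelium and 4 of 7 macrophage markers rose. The part of these cells in the histone values was not tested, and in such pools fewer cells of a type and less RNA per cell cannot be told apart.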

How the data were processed

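Polyadenylated RNA of 3 cKO and 3 WT pools of embryonic lenses was sequenced on an Illumina instrument, per the labels' protocols. The authors deposited for each library a raw count, a CPM (counts scaled to library size) and an RPKM (CPM per kilobase) per gene. Build GRCm38 and edgeR, with no version, are named in the submitters' processing notes, while for the aligner and counter the sources used here give no name. Deposited counts were tested, deposited CPM were used to check the counts, and deposited RPKM gave levels between genes. The counts and CPM of 26 features did not correspond within a tolerance of 1e-06, and these, no histone gene among them, were left out (0.0424% to 0.0636% of counts), leaving 41102. Replicates of a group correlated with Pearson r of 0.977 to 0.99 across genes.

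Genes were tested with edgeR 4.0.16 in R 4.3.3 (TMM factors, filterByExpr with a minimum count of 10, quasi-likelihood test over all 14271 features, Benjamini-Hochberg adjustment, threshold 0.05), and the SE is the log2 fold change divided by the square root of F. The fit was tested on simulated data. Alternatives used limma 3.58.1 (voom), DESeq2 1.42.0, other scalings and filters, a replicate block and leaving out each library. 2 were chosen after seeing the data: cKO library 1 alone, and totals without Lars2, Gm26917 and crystallins. Members, gene lists and markers were chosen with earlier results of these data known. Named are all 22 members and, of each list, the called genes in order of size up to 4, with Slbp, Npat, Chaf1a, Chaf1b, Hira and Cenpa. The p-values measure the spread between pools, except that with cKO library 1 alone they hold no spread between cKO pools. Protein comparisons, planned at the start, were not made here.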

Additional observations from a re-analysis of the deposited data

How the results depend on the processing

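The 5 clustered genes that fell were called lower under each alternative with more than 1 library a group, and the other counts moved. Clustered genes called higher numbered 1 in the edgeR test, 2 with DESeq2 or no filter, 3 with library totals alone, with totals without crystallins or with totals also without Lars2 and Gm26917, 0 with limma-voom or cKO library 1 alone, and 0 to 3 when 1 library was left out. Variant genes called higher numbered 3, 6 with library totals alone and 0 to 4 when 1 library was left out. Library totals alone, which took the median log2 fold change of all features from 0.04 to 0.39, called 5417 features higher and 945 lower, against 2263 and 2396 with TMM. With that scaling the variant median was 0.50, the cKO over WT ratio of the clustered sum 0.677 (0.526 with TMM) and of the variant sum 1.51 (1.19 with TMM). With cKO library 1 alone 926 features were called higher and 1327 lower, the medians were -1.02 (clustered) and 0.41 (variant), the variant sum ratio was 1.31 and the ratio of clustered to variant sums was 0.392 of WT (0.445 with all libraries). The clustered median was -1.05 with limma-voom. Leaving out 1 library gave 836 to 2400 features higher, 1431 to 2917 lower, a clustered median of -1.16 to -0.36 and a clustered sum ratio of 0.483 to 0.556.

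Signs turned only for genes not called by the edgeR test, none of them called after turning. With cKO library 1 alone the log2 fold changes were -0.40 for Hist1h1b, -0.093 for Hist1h4i, 0.19 for H2afy, 0.34 for H1fx and 0.0098 for H3f3a. With library totals alone they were 0.31 for Hist1h1e, 0.35 for H2afy, 0.31 for H1fx, 0.26 for H3f3a and 0.14 for H2afj. Totals without crystallins gave 0.025 for Hist1h1e, 0.089 for H2afy and 0.050 for H1fx, and totals also without Lars2 and Gm26917 gave 0.096, 0.134 and 0.0895, and 0.041 for H3f3a. Upper quartile factors gave 0.0102 for Hist1h1e and 0.045 for H2afy. H2afy was 0.0047 with 1 CPM in 3 libraries as the filter and 0.0032 with 10 counts in 3 libraries. H1f0 was -0.021 with DESeq2, -0.0125 with RLE factors and -0.0071 with no filter, and H1fx 0.0042 with limma-voom. Leaving out 1 library gave ranges of -1.28 to 0.54 for Hist1h1e, -0.13 to 0.14 for Hist2h2be, -0.11 to 0.15 for Hist1h4i, -0.088 to 0.0325 for H1f0, -0.11 to 0.11 for H2afy and -0.32 to 0.072 for H1fx. The cause of these changes was not tested.

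Deviations of same-numbered libraries from their group means correlated at -0.0276, 0.254 and 0.111 across genes. For differently numbered libraries the values ran from -0.224 to 0.0878. Whether replicate numbers pair the samples is not settled by these values. With the replicate block the counts were 1 higher and 5 lower (clustered), 3 and 0 (variant), and 2020 and 2156 over all features, and Malat1 was called lower (log2 fold change -1.13, adjusted p = 0.0443). Depth limits Hist1h4h (6 to 23 counts a library) and Hist1h4j (5 to 18) in particular. Both also share sequence with other genes.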
